A study of Bos taurus with 6 samples.

Results

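Glutathione is the most abundant thiol of the cell, and 9 genes of its synthesis and use were followed in bovine blastocysts: GCLC, GCLM and GSS, which make glutathione, GSR, which regenerates it, and the glutathione peroxidases GPX1, GPX3, GPX4, GPX7 and GPX8, which mostly spend it. Members were taken as the rows of the deposited table whose gene name equals one of these symbols, and each symbol had 1 row, 9 of 36075 in all. The libraries compared were 3 from blastocysts labelled control and 3 from blastocysts labelled MT-treated, where MT is melatonin. Cumulus–oocyte complexes from slaughterhouse ovaries were matured in vitro for 22 h without MT or with 1e-07 mol/L MT, fertilized in vitro and cultured, and each library held the RNA of a pool of 3 blastocysts. Pools of a group came from separate production runs. Apart from MT during maturation, the methods describe the same handling for both groups, and MT was not given to the embryos themselves.

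In the synthesis of glutathione, glutamate-cysteine ligase joins glutamate to cysteine, with GCLC as its catalytic and GCLM as its modifier subunit, and glutathione synthetase (GSS) then adds glycine. The peroxidases reduce hydrogen peroxide or lipid peroxides and oxidize glutathione to its disulfide, which glutathione-disulfide reductase (GSR) turns back with NADPH. GPX1, GPX3 and GPX4 carry selenocysteine in the active site, whereas GPX7 and GPX8 carry cysteine and reside in the endoplasmic reticulum. In oocytes and early embryos, glutathione is known as a store that is built up during oocyte maturation and as a defence against peroxides.

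Values are TPM, a measure corrected for transcript length and for the size of the library, so levels of different genes can be compared within a library, but no counts or depth can be derived from them. The number of rows above 0 was between 8854 and 8953 in the control libraries and between 14372 and 14408 in the MT-treated libraries, and 33.8% of the tested rows were listed at 0 in every control library, so a 0 is given here only as listed. Whether the control and MT-treated columns were made with the same annotation and settings was not tested, which bears on each 0 and each fold change below. Blastocyst markers were checked first. KRT8, KRT18, GATA3, TFAP2C and POU5F1 were above 0 in every library. The trophectoderm regulator CDX2, the inner cell mass factor NANOG and the hypoblast receptor PDGFRA were listed at 0 in all 3 control libraries, and SOX2 reached at most 0.02 TPM there, whereas the same genes had between 5.88 and 24.2 TPM after MT. Of 7 cumulus and granulosa cell markers in the table, 6 were listed at 0 in every control library, and the list summed to between 17.2 and 19.2 TPM in control and between 15.1 and 17.1 TPM in MT-treated libraries, almost all from FSHR, with CYP19A1 and HAS2 at or near 0. All 8 oocyte markers were listed at 0 in control and summed to between 1.03 and 1.44 TPM in MT-treated libraries. The sperm marker list, through TNP1 alone, summed to between 59.6 and 65.0 TPM in control and to 0 in MT-treated libraries, and the blood list, through HBB alone, to 0 and to between 23.2 and 24.8 TPM. The part of these differences in the results below was not tested. In pools of blastocysts, fewer cells of a type and less RNA per cell cannot be told apart.

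At an adjusted p-value under 0.05 (limma on log2(TPM + 1), Benjamini–Hochberg over all tested rows), GPX1, GPX8, GSR, GCLM and GSS were higher and GPX4 was lower after MT than in control, a direction that for GPX4 turned under one of 2 other scalings. These 6 are the members that reached the level required for testing, at least 1 TPM in at least 3 libraries. GSS and GPX8 reached it through the MT-treated libraries alone, so that they had to differ, and GCLC, GPX3 and GPX7 did not reach it. The count has to be read against the table as a whole, where 95.7% of the 11953 tested rows passed the same threshold, 61.6% higher and 34.1% lower. Quantile normalization gave 5550 higher and 5311 lower rows in place of 7367 and 4071. Over the 6 tested members the median log2 fold change was 1.06, beside 1.12 over all tested rows. Both medians include rows listed at 0 in control, such as GSS and GPX8. The 4 members above 0 in all 6 libraries had 0.50 (GPX1), -0.43 (GPX4), 1.53 (GSR) and 0.59 (GCLM). The median over the 6925 such rows was -0.19. The values of the groups did not overlap for 7 of the 9 members, namely all 6 tested members and GCLC. Among all tested rows, 96.1% showed such a separation. GCLC, GSS and GPX8 were apart from a control group listed at 0 throughout.

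**Figure D1:**
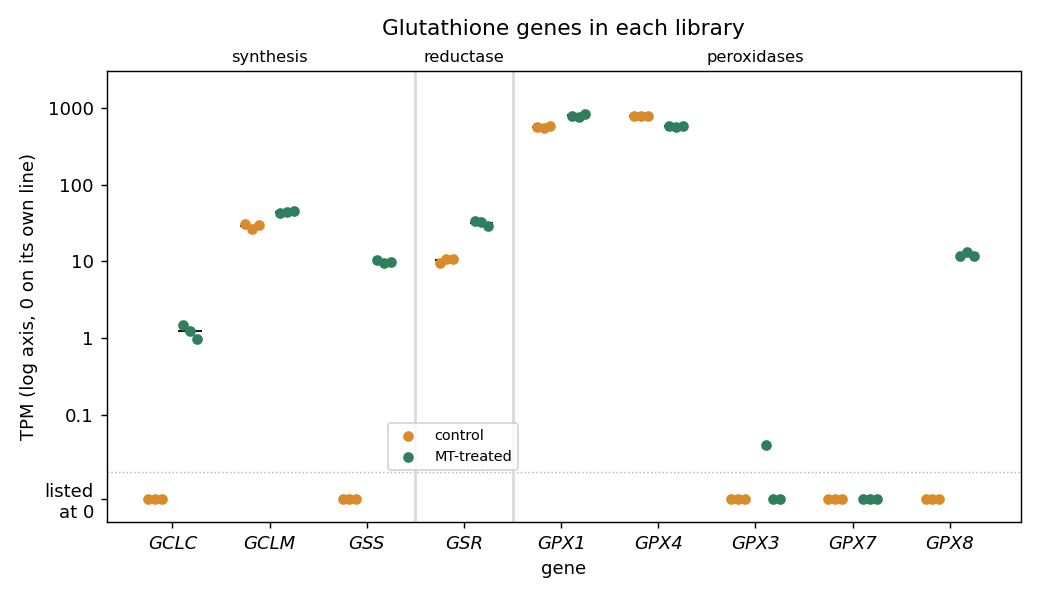
TPM of the 9 glutathione genes in each of the 3 control (orange) and 3 MT-treated (green) libraries on a log axis, with values listed at 0 on a line of their own and black bars at group means where all 3 values are above 0. GPX1 and GPX4 lie above 500 TPM in every library, and GCLC, GSS, GPX3, GPX7 and GPX8 are listed at 0 in all 3 control libraries.

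Among the synthesis genes, GCLM was the most abundant in every library. It had 30.8, 26.5 and 29.4 TPM in the control and 42.1, 44.5 and 45.6 TPM after MT, so that the lowest MT-treated value lay above the highest control value. The log2 fold change was 0.59 (standard error 0.06, 95% interval 0.44 to 0.75, adjusted p = 0.000104 by limma). GCLM ranked between 3791 and 4069 in the control libraries, counted from the most abundant row, and between 2482 and 2647 in the MT-treated libraries.

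GSS was listed at 0 in all 3 control libraries and had 10.3, 9.58 and 9.84 TPM after MT (adjusted p = 1.57e-09 by limma). GCLC was listed at 0 in all 3 control libraries as well and had 1.47, 1.23 and 0.98 TPM after MT. Only 2 of these values reached 1 TPM, so GCLC was not among the tested rows. Without the filter on low values its adjusted p-value was 2.83e-05 by limma. Like GSS, GCLC entered that fit through the MT-treated libraries alone and could only be higher. No fold change is given for either gene, because TPM holds no counts from which a lower limit for the control could be set.

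The catalytic subunit GCLC was thus listed far below its modifier GCLM. The ratio of GCLC to GCLM was 0.0349, 0.0277 and 0.0215 after MT and 0 in every control library. The 3 synthesis genes together summed to 30.8, 26.5 and 29.4 TPM in control, all of it GCLM, and to 53.9, 55.3 and 56.4 TPM in MT-treated blastocysts. These sums and ratios are descriptions with no test.

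GSR, the reductase that restores glutathione from its disulfide, showed the largest fold change among the 4 members above 0 in all 6 libraries. Its values were 9.46, 10.9 and 10.6 TPM in control and 33.4, 32.8 and 28.7 TPM in MT-treated libraries, with no overlap. The ratio of the group means was 3.07, and the log2 fold change was 1.53 (standard error 0.08, 95% interval 1.34 to 1.72, adjusted p = 2.28e-06 by limma). MT-treated replicate 3 was the lowest of its group and lay above every control value. Among the 6925 rows above 0 in all 6 libraries, 40.6% were higher and 52.3% lower, beside 3 higher (GPX1, GSR and GCLM) and 1 lower (GPX4) of these 4 members. The median absolute log2 fold change over the 6925 rows was 0.99, larger than the changes of GPX1, GPX4 and GCLM. Relative to GCLM, GSR stood at 0.308, 0.4097 and 0.362 in control and at 0.794, 0.737 and 0.629 in MT-treated libraries.

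The peroxidases held most of the TPM of the 9 genes. GPX1 and GPX4 together made up 97.2% ± 0.0794 of the summed TPM of the 9 members in control and 93.3% ± 0.328 after MT (SD, n = 3 each). GPX1, the cytosolic enzyme that reduces hydrogen peroxide, had 563, 550.5 and 579.9 TPM in control and 792, 770.2 and 827 TPM in MT-treated libraries. All MT-treated values were higher than all control values, with a log2 fold change of 0.50 (standard error 0.03, 95% interval 0.42 to 0.58, adjusted p = 8.54e-06 by limma).

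GPX4, which reduces lipid peroxides within membranes and protects cells from ferroptosis, moved the other way. It had 783, 773 and 781 TPM in control and 578, 563 and 587 TPM in MT-treated libraries, and every MT-treated value was lower. The log2 fold change was -0.43 (standard error 0.02, 95% interval -0.48 to -0.39, adjusted p = 6.88e-07 by limma). This direction depends on the scaling, as it was 0.044 (adjusted p = 0.0356 by limma) after each library was centred on the median of the rows with at least 1 TPM in all 6 libraries, a step that removes a shift of -0.48 between the groups. After quantile normalization it was -0.40. Among the 1006 rows with at least 100 TPM in all 6 libraries, to which GPX1 and GPX4 belong, 38.1% were higher and 52.5% lower. Over these 1006 rows the median log2 fold change was -0.10 and the median absolute log2 fold change was 0.36.

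**Figure D2:**
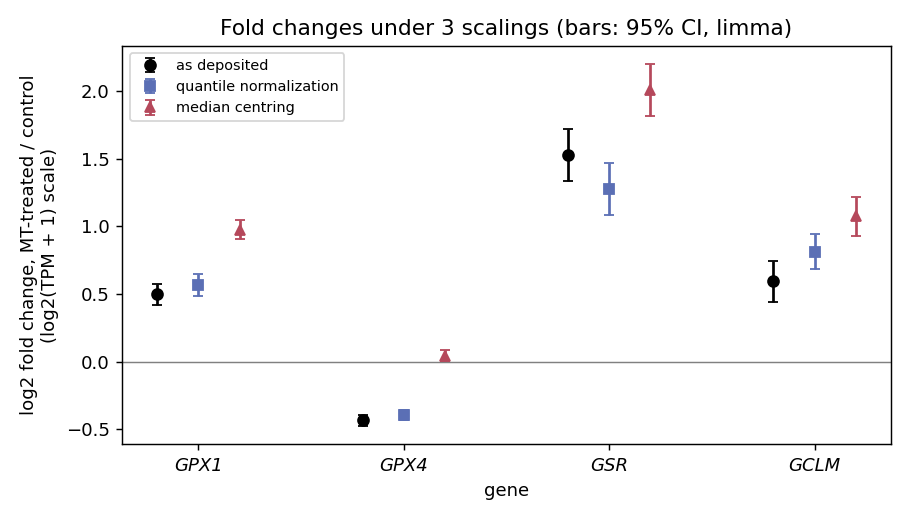
log2 fold changes (MT-treated against control, log2(TPM + 1) scale) with 95% intervals by limma for the 4 members above 0 in all 6 libraries, for values as deposited (black circles), after quantile normalization (blue squares) and after median centring (red triangles). GPX1, GSR and GCLM lie above 0 under the 3 scalings, whereas GPX4 lies at -0.43, -0.40 and 0.044.

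With these shifts the order of the 2 abundant peroxidases changed, which no scaling of a whole library can alter. GPX4 stood above GPX1 in every control library and below it in every MT-treated library. The ratio of GPX1 to GPX4 was 0.719, 0.712 and 0.743 in control and 1.37, 1.37 and 1.41 in MT-treated libraries. By rank from the most abundant row, GPX1 went from between 286 and 297 in control to between 199 and 214, and GPX4 from 212 and 213 to between 270 and 276. Their sum was 1346, 1323 and 1361 TPM in control and 1371, 1333 and 1414 TPM in MT-treated libraries, and these values overlapped.

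GPX8, a peroxidase of the endoplasmic reticulum membrane, was listed at 0 in all 3 control libraries and had 11.6, 13.2 and 11.7 TPM after MT (adjusted p = 6.3e-09 by limma). In the RefSeq gene table, whose assembly (ARS-UCD2.0) differs from the one used for the files, GPX8 overlaps CDC20B, which was listed at 0 in all 6 libraries. Whether reads were counted by strand is not stated. Its relative GPX7 was listed at 0 in all 6 libraries. GPX3, the peroxidase secreted into plasma and other fluids, was listed at 0 in 5 libraries and at 0.04 TPM in MT-treated replicate 1, and its adjusted p-value without the filter on low values was 0.389 by limma.

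Set in order, the control levels ran GPX4, GPX1, GCLM and GSR, followed by the 5 genes listed at 0. In MT-treated blastocysts the order was GPX1, GPX4, GCLM, GSR, GPX8, GSS and GCLC, with GPX3 and GPX7 last. The ranges of neighbours in these orders did not overlap for the genes above 0 in all libraries of a group, the closest pair being GPX8, with a lowest value of 11.6 TPM, and GSS, with a highest value of 10.3 TPM. GPX3 and GPX7 could not be told apart. The replicates of the 4 members above 0 in all 6 libraries had a coefficient of variation between 0.7004% for GPX4 in control and 8.14% for GSR in MT-treated blastocysts.

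Of the 5 members listed at 0 throughout the control group, GSS, GPX8 and GCLC were read against genes of the same level, and GPX3 and GPX7 lay below the levels compared. Of 4448 rows averaging 5 to 20 TPM after MT, where GSS and GPX8 lie, 47.5% had a 0 in each control library. Of 1309 rows averaging 0.5 to 2 TPM after MT, where GCLC lies, the share was 56.5%, and of 2585 rows with a mean of 20 to 50 TPM, where GSR and GCLM lie, it was 28.9%. In the opposite direction, 6.97% of 1449 rows with a control mean of 5 to 20 TPM had a 0 in each MT-treated library. Among all tested rows 33.8% were listed at 0 in every control library, beside 2 of the 6 tested members.

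**Figure D3:**
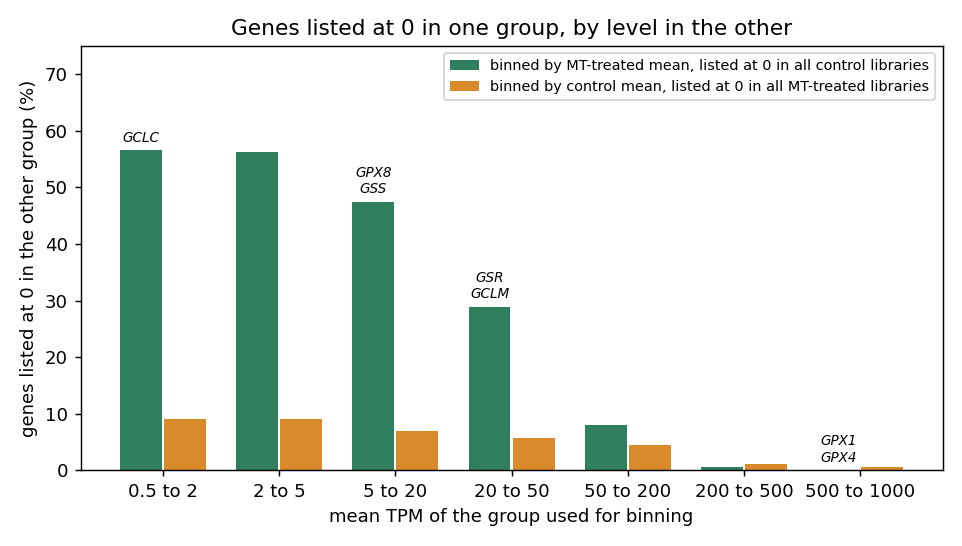
Percentage of rows listed at 0 in all 3 libraries of a group (y axis), by the mean TPM in the other group (x axis), with rows binned by the MT-treated mean in green and by the control mean in orange. The 9 genes are written above the green bar of their MT-treated mean, except GPX3 and GPX7, which lie below the lowest bin, and 47.5% of the rows in the bin of GSS and GPX8 are listed at 0 in control.

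Beyond the 9 genes, 46 genes of glutathione metabolism and its supply were grouped into 8 lists by role, of which 44 are in the table and 40 were tested. Of these 40, MT was followed by 21 higher and 14 lower genes and 5 did not pass the threshold, shares of 52.5% and 35% beside 61.6% and 34.1% of all tested rows. The median log2 fold change was 0.15, beside 1.12 over all tested rows, and both include rows listed at 0 in control. The median of -0.19 over the 6925 rows above 0 in all 6 libraries leaves such rows out. Over all tested rows the median was 1.597 after median centring and 0.042 after quantile normalization. Median centring gave 30 higher and 8 lower genes, beside 70.4% and 25.4% of all tested rows, and quantile normalization 23 and 15, beside 46.4% and 44.4%. Of the 40, 12 were listed at 0 in every control library, entered the test through the MT-treated libraries alone and had to be higher on the deposited scale. Among rows above 0 in all 6 libraries the balance turned, with 9 of 28 genes higher and 14 lower, beside 40.6% and 52.3% of all such rows. The direction and call were shared by the 3 scalings for 17 higher and 8 lower genes, and the share over all tested rows was not computed. Of these higher genes, GPX2, GPX5, CBS, CTH, SLC7A11, HAGH, SLC25A40 and ME1 were listed at 0 in every control library.

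The other glutathione peroxidases followed GPX8 in having a 0 in each control library. GPX2, best known from the gut epithelium, had 15.4, 14.4 and 13.6 TPM after MT, and GPX5, best known from the epididymis, had 18.0, 17.2 and 18.6 TPM. Like GSS and GPX8, both entered the test through the MT-treated libraries alone and had to differ. GPX6 was listed at 0 in all 6 libraries.

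For the supply of cysteine, which limits glutathione synthesis, 4 of 5 genes were higher and none lower, beside 61.6% of all tested rows higher. Of these 4, CTH, CBS and SLC7A11 entered the test through the MT-treated libraries alone, and among rows above 0 in all 6 libraries 1 of 2 genes was higher. SLC3A2, the heavy chain of the cystine transporter, rose from 11.7 ± 1.15 to 143 ± 7.54 TPM (SD, n = 3 each; log2 fold change 3.51, standard error 0.08, limma adjusted p = 3.16e-08). Its light chain SLC7A11 was listed at 0 in all control libraries and had 23.1, 21.95 and 21.0 TPM after MT. CTH and CBS, the enzymes that make cysteine from homocysteine, were also listed at 0 in control, with 94.2, 91.9 and 93.5 TPM and 7.15, 5.92 and 6.45 TPM after MT. SLC1A1, a carrier of glutamate and cysteine, had 275 ± 5.59 TPM in control and 263 ± 34.8 TPM in MT-treated blastocysts (mean ± SD, n = 3 each), with a log2 difference of -0.07 (95% interval -0.30 to 0.16, adjusted p = 0.486 by limma) that was 0.41 and called higher after median centring.

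Among genes of glutathione breakdown, 3 of 9 tested genes were higher, 3 were lower and 3 did not pass the threshold, beside 61.6% higher and 34.1% lower of all tested rows. Median centring gave 6 higher and 2 lower (70.4% and 25.4% of all tested rows), and quantile normalization 3 and 5 (46.4% and 44.4% of all tested rows). Among rows above 0 in all 6 libraries, 1 of 7 genes was higher and 3 were lower, beside 40.6% and 52.3% of all such rows. GGACT, an enzyme that acts on gamma-glutamylamines, fell from 65.4 ± 2.08 to 2.20 ± 0.261 TPM (SD, n = 3 each; log2 fold change -4.38, standard error 0.07, limma adjusted p = 6.43e-09). The transferase GGT5 fell from 9.62 ± 0.573 to 2.45 ± 0.227 TPM and the cyclotransferase GGCT from 113 ± 1.14 to 78.9 ± 3.34 TPM (SD, n = 3 each), although GGCT was no longer called after median centring (log2 fold change -0.03). LAP3, an aminopeptidase, rose from 31.3 ± 1.0 to 77.3 ± 1.77 TPM (mean ± SD, n = 3 each). The other 2 higher genes, OPLAH and CHAC2, were listed at 0 in control, entered the test through the MT-treated libraries alone and had at most 3.87 and 1.11 TPM after MT. After quantile normalization CHAC2 was called lower and OPLAH was not called.

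Other genes use glutathione outside the peroxidases. Of 3 glutaredoxins, which reduce disulfides with glutathione, GLRX2 rose from 201 ± 2.48 to 234 ± 6.05 TPM (SD, n = 3 each, log2 fold change 0.22, adjusted p = 0.00013 by limma). GLRX3 did not pass the threshold (log2 fold change -0.02, 95% interval -0.07 to 0.02), and GLRX5 had a log2 fold change of -0.07 (adjusted p = 0.0321 by limma), while both were called higher after median centring and after quantile normalization. Of the glyoxalase enzymes, HAGH, which releases glutathione from lactoylglutathione, was listed at 0 in control and had 32.4, 28.3 and 29.2 TPM after MT. GLO1, which acts before it, went from 117 ± 3.10 to 105 ± 0.317 TPM (SD, n = 3 each, log2 fold change -0.16, adjusted p = 0.000761 by limma) but was called higher under the other two scalings. ETHE1, a mitochondrial enzyme that oxidizes glutathione persulfide, rose from 200 ± 5.03 to 213 ± 7.81 TPM (SD, n = 3 each; log2 fold change 0.09, limma adjusted p = 0.0407). ESD, which hydrolyses formylglutathione, rose from 83.0 ± 1.18 to 170.6 ± 1.59 TPM (SD, n = 3 each).

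All 3 genes listed for the import of glutathione into mitochondria were higher under the 3 scalings. Of all tested rows, 61.6% were higher on the deposited scale, 70.4% after median centring and 46.4% after quantile normalization. SLC25A40 was listed at 0 in control and could only be higher on the deposited scale, and its log2 fold change was 0.35 after quantile normalization. SLC25A39, the carrier best linked to this import, rose from 18.2 ± 0.936 to 70.3 ± 1.57 TPM (SD, n = 3 each; log2 fold change 1.90, standard error 0.04, limma adjusted p = 3.72e-08). SLC25A11 rose from 45.6 ± 1.15 to 82.8 ± 1.76 TPM (mean ± SD, n = 3 each), and SLC25A40 had 6.71, 6.37 and 6.77 TPM after MT.

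Other genes supply NADPH, which GSR consumes. IDH2, the mitochondrial NADP-dependent isocitrate dehydrogenase, had 62.6, 61.7 and 66.1 TPM in control and 1.35, 1.89 and 1.86 TPM in MT-treated libraries (log2 fold change -4.58, standard error 0.09, limma adjusted p = 1.91e-08). It was lower under the 3 scalings. The cytosolic IDH1 fell from 152 ± 1.70 to 111 ± 2.67 TPM and PGD, an oxidative enzyme of the pentose phosphate pathway, from 129.6 ± 0.393 to 116 ± 5.22 TPM (SD, n = 3 each), but after median centring IDH1 was not called and PGD was called higher, as it was after quantile normalization. ME1 and NNT were listed at 0 in control and had between 4.55 and 6.19 and between 1.10 and 1.59 TPM after MT, and NNT was called lower after quantile normalization.

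For the insertion of selenocysteine, on which GPX1 and GPX4 depend, 5 of 8 genes were lower and 3 higher, beside 34.1% lower and 61.6% higher of all tested rows. Median centring gave 4 each (25.4% of all tested rows lower and 70.4% higher), and quantile normalization 6 lower and 2 higher (44.4% and 46.4% of all tested rows). Among rows above 0 in all 6 libraries, 5 of 7 genes were lower and 2 higher, beside 52.3% and 40.6% of all such rows. SEPSECS, which forms selenocysteine on its tRNA, had 25.0, 26.6 and 22.4 TPM in control and 0.53, 0.50 and 0.65 TPM in MT-treated libraries (log2 fold change -4.04, standard error 0.07, limma adjusted p = 1.41e-08). SEPHS2, which makes the selenium donor, fell from 272 ± 3.70 to 111 ± 3.64 TPM, and TRNAU1AP, a protein bound to the selenocysteine tRNA, from 72.0 ± 1.58 to 26.9 ± 0.4104 TPM (SD, n = 3 each). SECISBP2, which binds the selenocysteine insertion element of the mRNAs, rose from 2.37 ± 0.3402 to 24.9 ± 0.804 TPM (SD, n = 3 each; log2 fold change 2.95, standard error 0.08, limma adjusted p = 9.76e-08). SEPHS1, a homologue of SEPHS2, rose from 20.7 ± 0.606 to 40.1 ± 1.71 TPM (SD, n = 3 each). PSTK was listed at 0 in control and tested through the MT-treated libraries alone, with 2.64, 3.36 and 3.26 TPM after MT, and was called lower after quantile normalization. The fall of SEPSECS, SEPHS2 and TRNAU1AP and the rise of SECISBP2 and SEPHS1 were called under the 3 scalings.

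**Figure D4:**
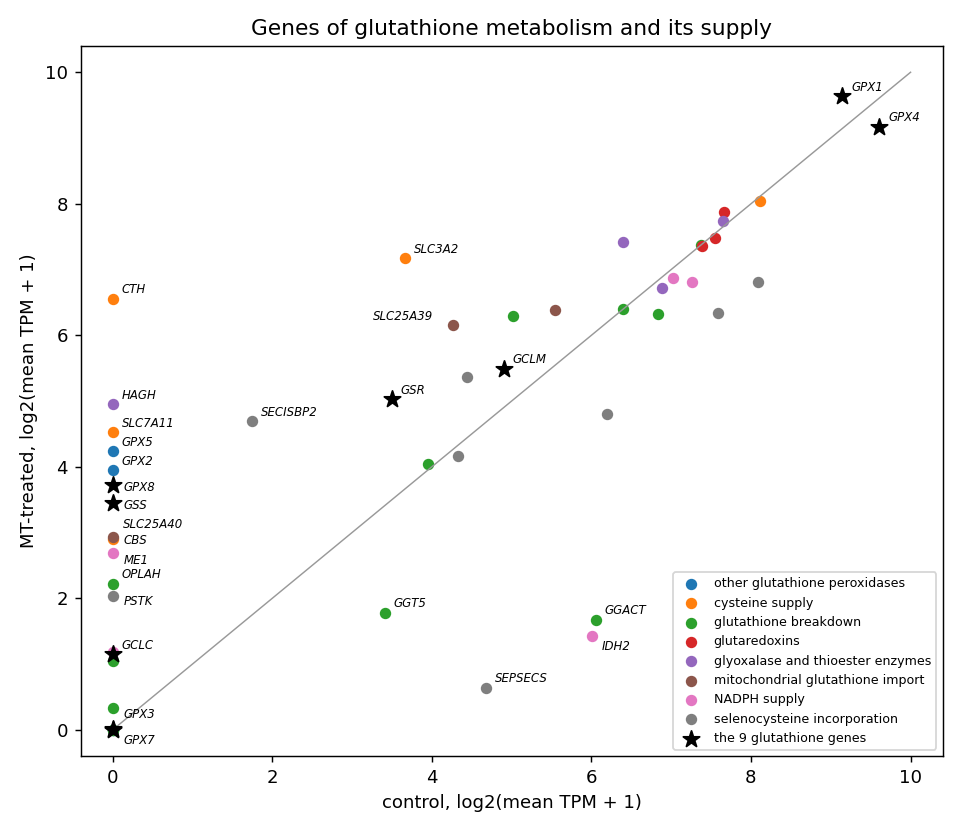
Mean level of each gene in MT-treated (y axis) against control (x axis) blastocysts, as log2(mean TPM + 1), for the 9 glutathione genes (black stars) and the other genes of the 8 lists, 1 left out (circles coloured by role), with a diagonal line of equal level and names beside the stars and genes over 1.5 units from it. On this deposited scale GPX1 and GPX4 sit at the upper end on opposite sides of the line, although GPX4 has a log2 fold change of 0.044 after median centring, genes at the left edge are listed at 0 in control, and IDH2, SEPSECS and GGACT lie far below the line.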

How the data were processed

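RNA of 6 libraries of bovine blastocysts was compared, 3 control and 3 MT-treated, grouped by their labels. Per the submitters' processing notes and the study's methods, the authors aligned reads with STAR 2.7.9a, counted them with featureCounts (Subread 1.6.3) and deposited TPM. The notes name the build ARS-UCD1.2 and the methods ARS-UCD1.3. The methods name Smart-seq2 and the labels a TruSeq kit. How counts became TPM is not given in the sources used here, and the sequencing depth, which the study tabulates elsewhere, was not used here.

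The 9 members and the gene lists were chosen with earlier results of these data known. log2(TPM + 1) was fitted with limma 3.58.1 (intensity trend) in R 4.3.3 over 11953 rows with at least 1 TPM in at least 3 libraries, with Benjamini–Hochberg adjustment at 0.05. The fit was checked on simulated data. Summaries used Python 3.11.15 and pandas 2.3.3. Each list named up to 3 rises and 3 falls of largest fold change, and CBS, PGD, SLC1A1, GLRX3 and GPX6 were named beyond that rule after their values were seen. One gene of the NADPH list is not reported here, and the counts over all lists include it.

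The settings varied were the pseudocount (0.1), the filter (none, or a minimum of 5 TPM), 2 other scalings, no trend, a replicate block, summed symbols, each library left out, and, added after the data were seen, rows above 0 in all 6 libraries. Within a group, rows of at least 20 TPM differed between any 2 libraries by a median of 2.25% to 3.25%. For 3 against 3 libraries, the smallest two-sided p-value that exact permutation allows is 0.1.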

Additional observations from a re-analysis of the deposited data

How the results depend on the processing

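GPX1, GSR and GCLM were higher and called under every alternative run. GSS and GPX8, at 0 in all control libraries, entered the test through the MT-treated libraries alone, so their calls are no sign of stability. GPX4 turned from -0.43 to 0.044 after median centring, which left 0 lower members, and it stayed called and lower under the other 8 alternatives and with each library left out. Restricted to rows above 0 in all 6 libraries, where GSS and GPX8 drop out by construction, 3 members were higher. With each library left out in turn, the log2 fold change lay between 0.47 and 0.52 for GPX1, -0.45 and -0.42 for GPX4, 1.47 and 1.59 for GSR and 0.54 and 0.64 for GCLM. Of the genes in the other lists, 8 were lower after median centring in place of 14, and 9 were higher in place of 21 when restricted to rows above 0 in all 6 libraries. Rescaled to the same summed TPM in every library, the 9 members summed to 1475 in control and 1611 in MT-treated libraries in place of 1382 and 1472, the peroxidases to 1433 and 1516 in place of 1343 and 1385, and the synthesis genes in MT-treated libraries to 60.4 in place of 55.2. Libraries with the same number in both groups did not deviate together (correlations of -0.0115, -0.000679 and 0.0588 over tested rows), and the replicate block kept 5 members higher and 1 lower, with 7379 rows higher and 4082 lower in place of 7367 and 4071. Over all genes, 2814 of the 6925 rows above 0 in all 6 libraries were higher (40.6%) and 3626 lower, beside 61.6% higher among all tested rows. That set leaves out, among others, the 4037 tested rows listed at 0 in every control library, which could only be higher on the deposited scale. Sequencing depth was not used here, and TPM alone set no lower limit for the genes listed at 0.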

Other observations

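For each tested member, the other row with a symbol whose log2(TPM + 1) values were closest over the 6 libraries is given as a description. GPX1 was closest to the ribosomal protein gene RPL29 (560.7, 547 and 579 TPM in control and 798, 764 and 791 TPM in MT-treated libraries), with a root mean square difference of 0.03 on the log2 scale. GPX4 was closest to MANF, a secreted protein of the endoplasmic reticulum, at 784, 791 and 797 TPM in control and 586, 575 and 587 TPM in MT-treated libraries (difference 0.02). GSR was closest to the nuclear pore gene NUP133 (difference 0.11) and GCLM to ALDH1L2, a mitochondrial folate enzyme (difference 0.08). GSS and GPX8, both listed at 0 in control, were closest to LGALS9 and DOCK6, which were listed at 0 there too. With 6 libraries in 2 separated groups, a close match says little beyond the group means.

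On the deposited scale, neighbours of the members in the RefSeq order did not share their directions throughout. Calls of neighbours under the other scalings are not given here. POLR2E, a subunit of RNA polymerase II beside GPX4, had 50.2, 50.3 and 49.5 TPM in control and 194, 194 and 199 TPM in MT-treated libraries, whereas GPX4 fell on the deposited scale and not after median centring. RHOA, beside GPX1, was higher like GPX1, at 263, 263 and 257 TPM in control and 330.2, 327 and 326 TPM in MT-treated libraries. DNTTIP2, beside GCLM, and GTF2E2, beside GSR, were called lower on the deposited scale while GCLM and GSR rose. Whether these falls hold after median centring, which removes a shift of -0.48 between the groups, was not tested. GSS lies between ACSS2, which was called higher, and MYH7B, which had 1.69, 1.73 and 1.78 TPM in control and was listed at 0 in the MT-treated libraries.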
